A study of Mus musculus with 15 samples.

Results

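The cadherin superfamily was followed across 5 groups of mouse cerebellar tumours and sorted cerebellar cells. Members were all probe sets that the array's annotation assigned to a single gene whose symbol was Cdh followed by a digit, Pcdh followed by any name, Celsr1 to Celsr3 or Fat1 to Fat4. This rule used names only and no measured value. It found 96 probe sets for 61 genes, out of 45141 probe sets on the array, 28898 probe sets listed with 1 gene, and 17097 genes. The members comprised 5 type I classical cadherins, 9 type II classical cadherins, 5 other cadherins, 4 delta-1, 5 delta-2 and 3 other non-clustered protocadherins, 24 clustered protocadherins, 3 Celsr and 3 Fat genes. Fat4 was listed only together with another gene, and the gamma protocadherins did not occur as a single listed gene, so neither is among the members.

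RNA from 15 samples, 3 per group, was hybridised to Affymetrix HT_MG-430_PM arrays. Myc primary tumours arose after Myc-infected cerebellar cells of Cdkn2c-/-, Trp53-/-, Atoh1-GFP mice were placed in the cerebral cortex of nude mice, immunocompromised hosts that still provide host vessels and stroma. Myc secondary tumours grew from transplanted sphere cells that had been cultured from Myc primary tumours. Shh tumours were spontaneous medulloblastomas of Cdkn2c-/-; Trp53Fl/Fl; Nestin-Cre mice, in which Cre is driven by the Nestin promoter. GFP-positive and GFP-negative cells were sorted by FACS from cerebella of Cdkn2c-/-, Trp53-/-, Atoh1-GFP mice at postnatal day 6. The source field calls the sorted samples spontaneous tumour, while the series' design text describes them as sorted cerebellar cells, and the design text was followed. Every group therefore carried the Cdkn2c deletion and lost Trp53, so there was no wild-type control. Tumour cells were purified on a Percoll gradient. The labels do not say that the samples of a group came from separate animals, so p-values measure only the spread between these samples.

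Cadherins are transmembrane proteins whose extracellular repeats bind calcium and hold cells to their neighbours. Classical cadherins bind catenins inside the cell and through them the actin cytoskeleton. Clustered protocadherins are encoded in tandem arrays on mouse chromosome 18, from which individual neurons express different combinations, and they serve self-recognition of neurites. Non-clustered protocadherins of the delta type act in weak adhesion, cell sorting and axon growth. Celsr proteins are core components of planar cell polarity, and Fat proteins are giant cadherins of tissue growth and cell orientation. In the postnatal cerebellum, Atoh1 marks granule neuron progenitors of the external granule layer, from which Shh-type medulloblastoma arises.

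Deposited values were log2 signals after robust multi-array averaging, and each gene was read from its brightest probe set over all arrays. Signals below 4.77, the 95th percentile over 23 nonspecific controls, could not be told from background. A difference was called when limma's adjusted p (Benjamini-Hochberg over 17097 genes) was below 0.05, and differences are given as log2 ± standard error of the fit, while group levels are given as mean ± SD of 3 arrays. In bulk RNA, fewer cells of a type and less RNA per cell cannot be told apart. Marker lists separated the groups: the array medians of 8 granule progenitor markers were 9.96 to 10.4 in Shh and 9.91 to 10.2 in GFP-positive, against 7.636 to 8.503 in GFP-negative, 5.07 to 5.66 in Myc primary and 5.06 to 6.17 in Myc secondary. The array medians of 12 microglial markers were 9.18 to 10.5 in GFP-negative and 3.81 to 4.38 in GFP-positive. Those of 11 astrocyte and Bergmann glia markers were 10.02 to 11.07 and 4.40 to 4.69. Within Myc primary, array 3 stood apart, with an oligodendrocyte marker median of 9.27 against 5.59 and 4.43 on arrays 1 and 2, and a fibroblast marker median of 7.67 against 4.34 and 4.78. Sample title numbers fell in 2 runs, one with Myc primary, Shh and 2 GFP-negative arrays and the other with GFP-positive, Myc secondary and 1 GFP-negative array. The labels do not say whether these runs are batches. Only GFP-negative had arrays in both runs, so a term for the runs rests on GFP-negative 3 against GFP-negative 1 and 2. Apart from those arrays, run and group cannot be told apart between groups of different runs.

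The number of members above background was largest in GFP-negative cells and Shh tumours and smallest in Myc tumours. No share of all genes above background stands beside these counts, so their order is not read as particular to the members. The group mean was above background for 33 of 61 members in GFP-negative, 31 in Shh, 25 in GFP-positive, 20 in Myc secondary and 18 in Myc primary. Of the 61 members, 16 were above background in all 5 groups, among them Cdh2, Cdh4, Fat1, Fat3 and the 3 Celsr genes, and 23 were above background in none. Over the 5 groups, limma's moderated F test called 31 of 61 members (50.8%), close to the 47.8% called among all genes. By class, it called 7 of 9 type II cadherins, 12 of 24 clustered protocadherins, 1 of 5 type I cadherins and 0 of 5 other cadherins. Of the 12 clustered members called, 9 had their highest mean in Shh and 9 had their lowest in Myc primary; among all genes past the same test, 14.1% were highest in Shh and 8.7% lowest in Myc primary. Of the 19 other members called, 13 were highest in GFP-negative, against 29.4% of all genes past the test. None of the 31 had its highest mean in Myc primary, against 17.9% of all genes past the test.

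**Figure D1:**
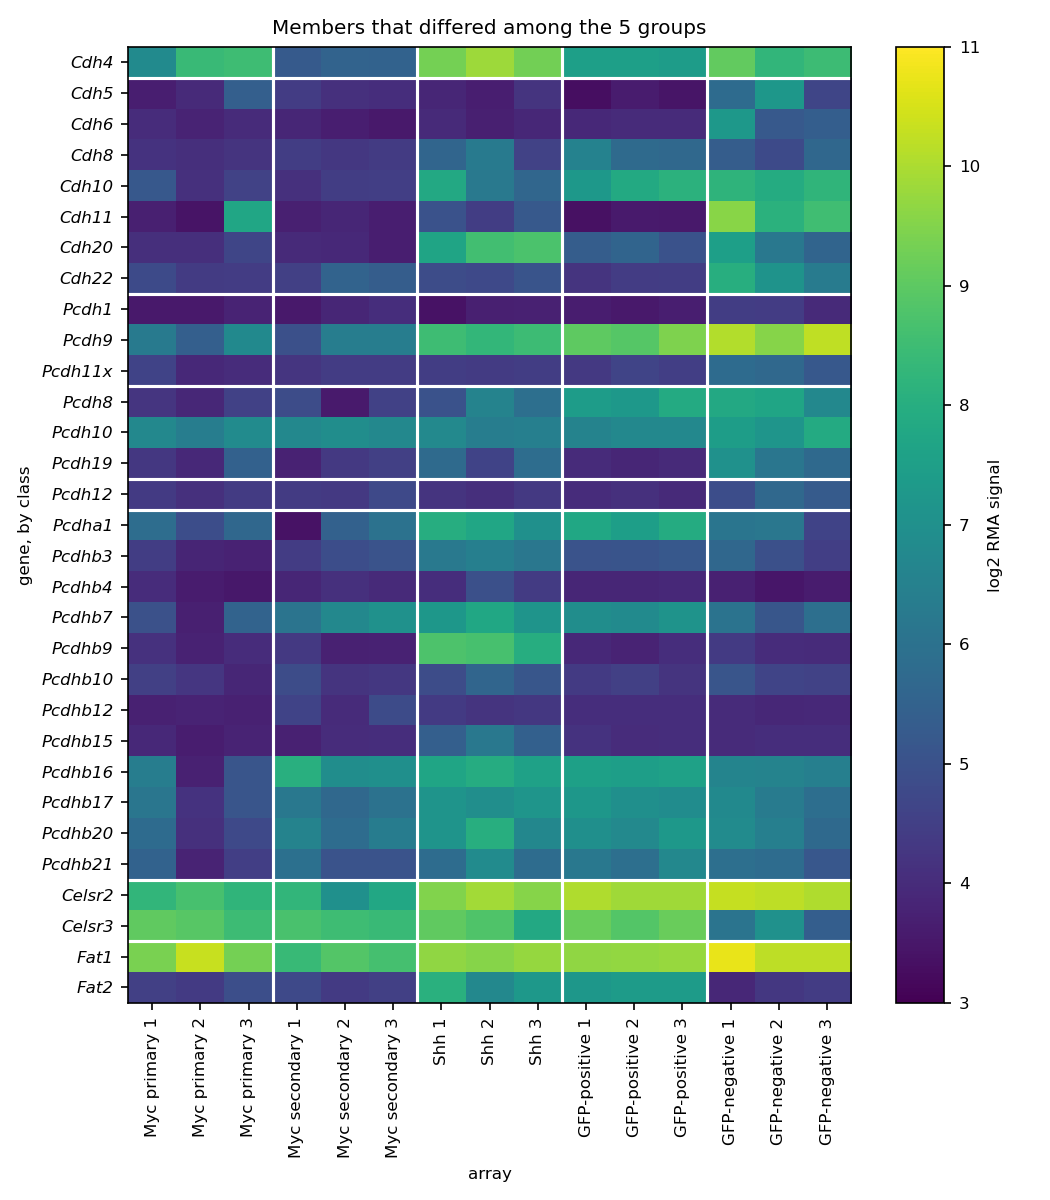
Heat map of log2 RMA signal for the 31 members past the F test, with genes ordered by class on the vertical axis and the 15 arrays on the horizontal axis. Of the 12 clustered protocadherins shown, 9 have their highest mean in Shh and 9 their lowest in Myc primary, and Cdh11, Cdh22 and Pcdh9 have their highest mean in GFP-negative.

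Cadherins differed between the 2 tumour types in 1 direction. In Myc primary against Shh tumours, 20 of 61 members (32.8%) were lower and 0 were higher, while over all genes 7.33% were called lower, 8.46% higher and 15.8% in either direction. The 20 were 12 of 24 clustered protocadherins, 3 type II cadherins (Cdh20, Cdh10, Cdh8), Cdh4, Pcdh9, Pcdh8, Celsr2 and Fat2. The median difference over the members was -0.24, against 0.08 over all genes, and over the 37 members outside the clusters it was -0.01 with 8 lower. The arrays of the 2 groups did not overlap in 26 members, against 36.5% of all genes. Of the 20 calls, 12 held when any single array was left out. Without array 2 of Shh, 12 members remained called, against 20 with all arrays, and this was the fewest.

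Myc primary tumours were also compared with the sorted cells, and the members called were mostly lower, although the share called was near that of all genes. In Myc primary against GFP-positive cells, 14 members (23.0%) were lower and 0 higher, against 10.3% lower, 14.5% higher and 24.8% in either direction among all genes. In Myc primary against GFP-negative cells, 22 members were lower and 1, Celsr3, was higher (37.7% together), against 14.7%, 19.1% and 33.8% among all genes. Without array 1 of GFP-negative, 15 of these were called, against 23 with all arrays. Markers of other cell types were lower in the same comparison: 12 of 12 microglial (list median -4.04), 10 of 11 astrocyte and Bergmann glia (-3.08), 7 of 9 oligodendrocyte (-3.43), 5 of 13 endothelial and 2 of 10 fibroblast markers. Their part in the differences of the members was not tested. Arrays did not overlap for 25 members against GFP-positive (46.2% of all genes) and for 24 against GFP-negative (40.9%). These comparisons share the Myc primary arrays with the comparison against Shh, so they are not independent of it. Cdh8, Cdh10, Celsr2, Pcdh8, Pcdh9, Pcdhb3, Pcdhb16, Pcdhb17 and Pcdhb20 were called lower in Myc primary than in each of Shh, GFP-positive and GFP-negative. These calls were not equally stable: against GFP-negative, that of Cdh8 ended without any one of 5 arrays (each Myc primary array, GFP-negative 1 or 3; adjusted p 0.0577 to 0.0964), that of Pcdhb16 without Myc primary 2 or 3 or any one GFP-negative array (0.0608 to 0.125), and those of Pcdhb17 and Pcdhb20 without Myc primary 2 or 3 or GFP-negative 1 or 2 (0.0544 to 0.0975). Against Shh, those of Cdh8 and Pcdh8 ended without any one of 5 and 4 arrays. The calls of Cdh10, Celsr2, Pcdh9 and Pcdhb3 held in all 3 comparisons when any single array was left out.

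Myc secondary differed from Myc primary tumours in 1 of 61 members (1.6%), Cdh4, which was lower; over all genes 0.719% were called, 0.462% lower and 0.257% higher. At an unadjusted p below 0.05, 9 members differed. The count of members called at an adjusted p below 0.05 was 1 with all arrays. It was 4 without Myc primary 1, 2 without Myc primary 3 and 3 without Myc secondary 1.

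Sorted GFP-positive and GFP-negative cells differed in both directions. In GFP-positive cells 5 members were higher and 12 lower (27.9% of 61), against 12.6%, 13.8% and 26.3% of all genes, so the share of members called was near the background. The 5 higher were Fat2, Celsr3, Pcdha1, Pcdhb7 and Cdh2, and all 12 lower members lay outside the clustered group. When each array was centred on its median gene, the median difference of all genes moved from 0.04 to 0.54 and 21 members were higher and 9 lower, so the split between directions depended on the scaling. Arrays did not overlap in 31 members, against 42.8% of all genes. Without array 1 or array 3 of GFP-positive, 11 members were called.

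Shh tumours differed from GFP-positive cells in 6 members (9.8%), against 7.56% of all genes. Higher in Shh were Pcdhb9, Cdh20, Cdh4, Pcdhb15 and Pcdhb3 (4.63% of all genes were called higher), and lower was Pcdh8 (2.92%). Arrays did not overlap in 26 members, against 39.6% of all genes. When any one GFP-positive array was left out, 4 members were called.

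**Figure D2:**
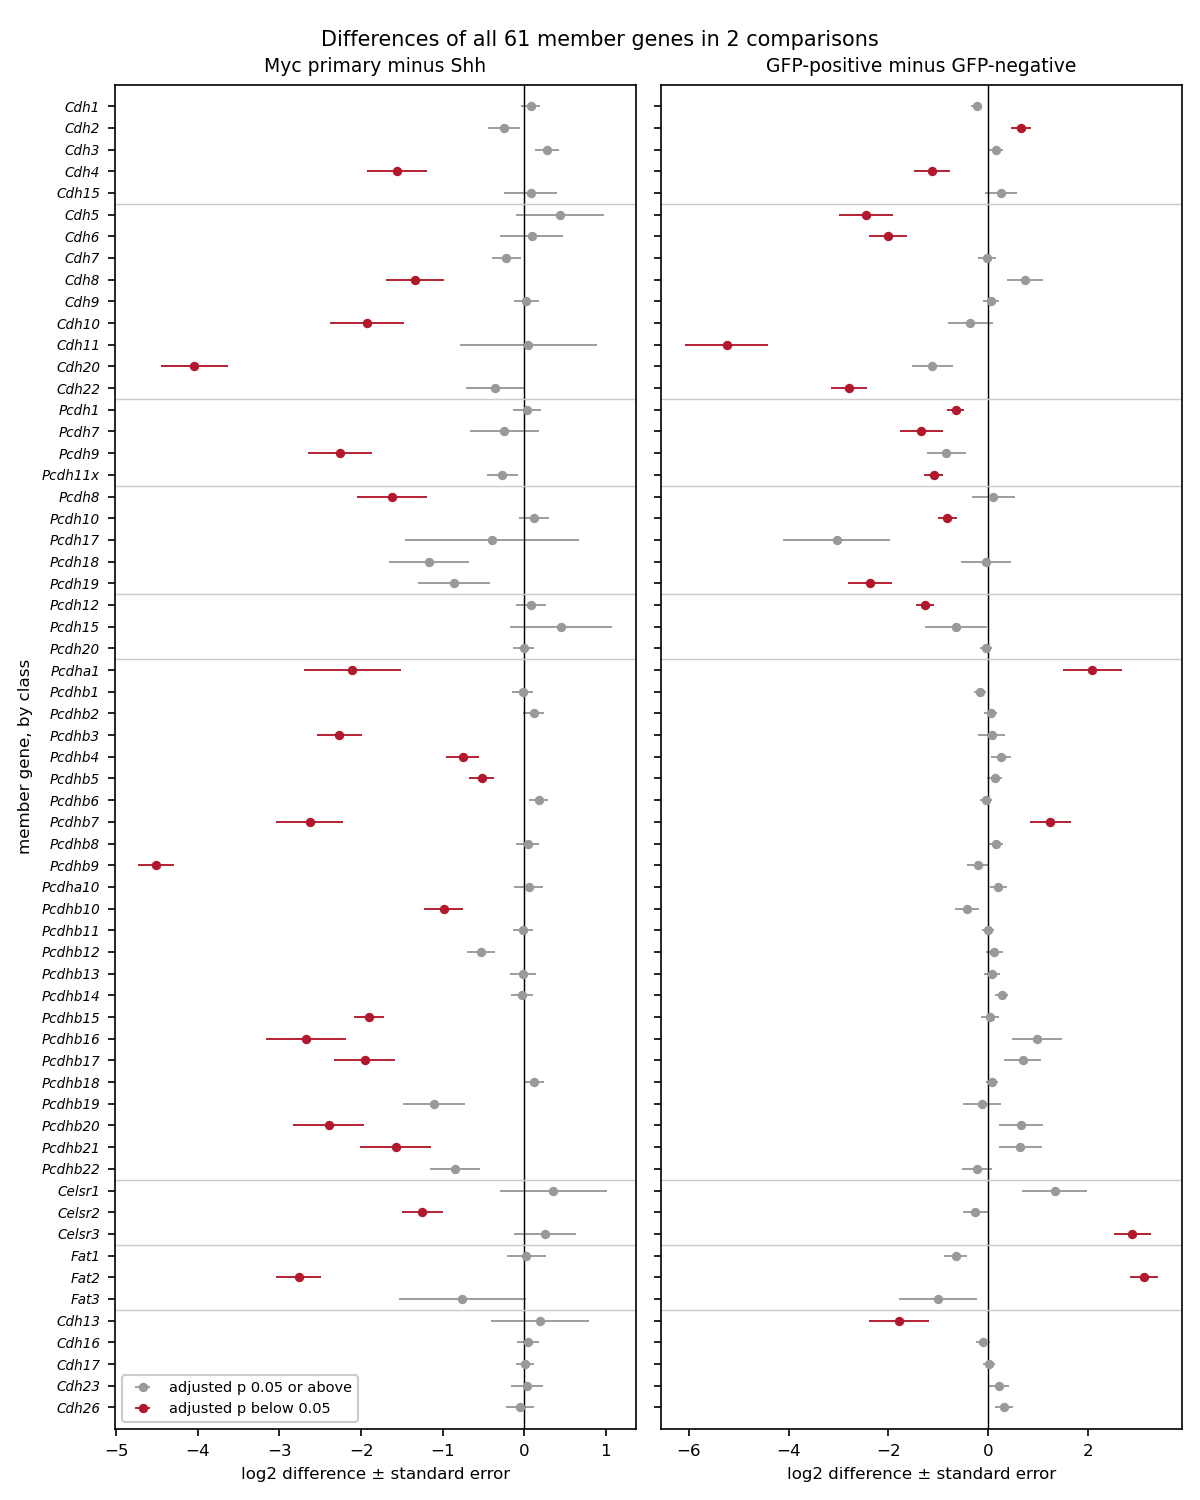
Log2 differences with standard errors for all 61 member genes, ordered by class, in Myc primary minus Shh (left) and GFP-positive minus GFP-negative (right), with members below an adjusted p of 0.05 in red. In the left panel all 20 called members lie below 0, and in the right panel 5 lie above and 12 below.

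Promoter sequence is shown for 4 called members, Celsr3, which was low only in GFP-negative cells, Pcdh8, which was low in Myc tumours, and Pcdh17 and Pcdh10, which were highest in GFP-negative cells. These are the 250 bases before a RefSeq transcript start (GRCm38.p6), 5′ to 3′ on the gene's strand, of which at most 30 lie inside the annotated gene, with CG dinucleotides in capitals.
Celsr3, chr9:108825795-108826044, plus strand: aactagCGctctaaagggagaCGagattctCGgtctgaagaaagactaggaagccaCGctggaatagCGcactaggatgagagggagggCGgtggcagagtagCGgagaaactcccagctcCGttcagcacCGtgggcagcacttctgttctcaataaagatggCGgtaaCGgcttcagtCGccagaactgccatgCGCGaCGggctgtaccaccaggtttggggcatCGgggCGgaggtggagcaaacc
Pcdh8, chr14:79771313-79771562, minus strand: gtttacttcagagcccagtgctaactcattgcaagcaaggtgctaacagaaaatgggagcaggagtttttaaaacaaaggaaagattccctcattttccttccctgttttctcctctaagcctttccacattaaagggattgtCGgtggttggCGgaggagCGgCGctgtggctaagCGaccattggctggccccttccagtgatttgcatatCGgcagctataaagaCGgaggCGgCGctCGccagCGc
Pcdh17, chr14:84443313-84443562, plus strand: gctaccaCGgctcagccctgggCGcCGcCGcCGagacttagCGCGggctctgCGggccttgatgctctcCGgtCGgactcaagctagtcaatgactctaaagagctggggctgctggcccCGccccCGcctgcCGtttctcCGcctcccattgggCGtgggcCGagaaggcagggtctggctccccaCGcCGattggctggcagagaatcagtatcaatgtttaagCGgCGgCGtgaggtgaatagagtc
Pcdh10, chr3:45378148-45378397, plus strand: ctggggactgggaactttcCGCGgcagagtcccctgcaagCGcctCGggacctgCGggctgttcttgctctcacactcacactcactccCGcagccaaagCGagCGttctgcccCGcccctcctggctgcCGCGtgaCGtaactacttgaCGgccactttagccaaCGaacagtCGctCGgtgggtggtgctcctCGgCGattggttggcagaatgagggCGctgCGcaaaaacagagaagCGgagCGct
The table held such windows for 24 of the 61 member genes. The windows differed in CG content: 22 CG dinucleotides were counted in Pcdh10, 21 in Pcdh17, 17 in Celsr3 and 11 in Pcdh8, against a median of 6 over all 32851 windows of that length. As many were found in 14.8% of all windows for Pcdh10, 16.3% for Pcdh17, 23.5% for Celsr3 and 35.6% for Pcdh8. Of 4 motifs searched on both strands, TATAAA was present in 12.37% of all windows, GGGCGG in 32.74%, CACGTG in 6.02% and CAGCTG in 13.0%. TATAAA was found in the Pcdh8 window and GGGCGG in the Celsr3, Pcdh17 and Pcdh10 windows, so no 2 motifs overlapped there; the matches describe these letters only.

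Among the type I classical cadherins, Cdh2 and Cdh4 were expressed and Cdh1 was not detected above background. Cdh2 (N-cadherin), the main cadherin of neural progenitors, read 9.77, 9.75 and 9.82 in Myc primary, 10.53, 9.80 and 9.85 in Myc secondary, 10.09, 10.01 and 9.97 in Shh, 10.68, 10.19 and 10.38 in GFP-positive and 10.06, 9.56 and 9.64 in GFP-negative. It was high on every array. The GFP-positive arrays lay above those of GFP-negative and Myc primary without overlap. Cdh2 was higher in GFP-positive than in GFP-negative cells by 0.66 ± 0.20 (limma adjusted p = 0.025) and lower in Myc primary than in GFP-positive by -0.64 (adjusted p = 0.0313). The first call ended without any of 4 single arrays (GFP-negative 2 or 3, GFP-positive 1 or 3; adjusted p 0.0577 to 0.115) and the second without any one of 5 (each Myc primary array, GFP-positive 1 or 3; adjusted p 0.0638 to 0.139).

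Cdh4 (R-cadherin, chromosome 2, 179442423 to 179899377), a cadherin of retina and brain, was the member called in Myc secondary against Myc primary. It read 9.32, 9.81 and 9.31 in Shh, 9.08, 8.28 and 8.47 in GFP-negative, 6.83, 8.43 and 8.51 in Myc primary, 7.504, 7.512 and 7.429 in GFP-positive and 5.28, 5.56 and 5.52 in Myc secondary. Shh was highest and Myc secondary lowest, with no overlap between either and any other group. Myc primary array 1 lay below every GFP-positive array and arrays 2 and 3 above them. Cdh4 was lower in Myc primary than in Shh by -1.56 ± 0.37 (adjusted p = 0.0117; 0.0528 without Shh 2, 0.0845 on the 6 arrays alone), higher in Shh than in GFP-positive by 2.0 ± 0.37 (adjusted p = 0.00508; 0.156 with a term for the 2 runs of title numbers), and lower in GFP-positive than in GFP-negative by -1.13 ± 0.37 (adjusted p = 0.0367; the call ended without GFP-negative 1 or 3 or any GFP-positive array, adjusted p 0.0558 to 0.128, with centring, 0.0946, and with the run term, 0.199). It was lower in Myc secondary than in Myc primary by -2.47 ± 0.37 (adjusted p = 0.0129). That call ended without Myc secondary 2 (adjusted p = 0.0501), on the 6 arrays alone (0.221) and with a term for the 2 runs of title numbers (0.0822). A second Cdh4 probe set gave 4.56, 5.43 and 5.30 in Myc secondary and 6.94, 8.66 and 8.25 in Myc primary.

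Cdh1 (E-cadherin), the epithelial cadherin, read 3.39, 3.46 and 3.54 in Myc primary, 3.27, 3.21 and 3.45 in Myc secondary, 3.48, 3.46 and 3.21 in Shh, 3.24, 3.38 and 3.20 in GFP-positive and 3.58, 3.51 and 3.42 in GFP-negative. It was not above background on any array. Cdh1 was called in none of the 6 comparisons, the widest difference being -0.23 between GFP-positive and GFP-negative (adjusted p = 0.171). Of 6 repressors of Cdh1 measured, Zeb1 and Zeb2 were lower in Myc primary than in Shh: Zeb1 by -1.24 ± 0.18 (adjusted p = 0.000655) and Zeb2 by -2.14 ± 0.43 (adjusted p = 0.00511), and the other 4 were not called. Over all genes 7.33% were called lower in that comparison.

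Type II cadherins, which sort neuronal populations, separated Myc from Shh tumours in 3 of 9 members, Cdh20, Cdh10 and Cdh8. Cdh20 (chromosome 1, 104768340 to 104995481) read 7.67, 8.57 and 8.74 in Shh, 7.52, 6.21 and 5.58 in GFP-negative, 5.36, 5.59 and 5.01 in GFP-positive, 4.08, 4.09 and 4.67 in Myc primary and 3.94, 3.92 and 3.67 in Myc secondary. The Shh arrays were the highest of the 15 and all 6 Myc arrays were below background. Cdh20 was lower in Myc primary than in Shh by -4.04 ± 0.41 (limma adjusted p = 4.61e-05), at least 11.8-fold when Myc primary is set at the background level. It was higher in Shh than in GFP-positive by 3.0 ± 0.41 (adjusted p = 0.000898; 0.137 with a term for the runs of title numbers) and lower in Myc primary than in GFP-negative by -2.16 (adjusted p = 0.0013).

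Cdh10, a cadherin of forebrain and cerebellar neurons, read 8.21, 7.92 and 8.22 in GFP-negative, 7.28, 7.86 and 8.15 in GFP-positive, 7.83, 6.23 and 5.64 in Shh, 5.20, 4.12 and 4.59 in Myc primary and 4.10, 4.46 and 4.48 in Myc secondary. Sorted cells were high in both fractions, Shh was spread over more than 2 log2 units, and 5 of the 6 Myc arrays were below background. Cdh10 was lower in Myc primary than in GFP-negative by -3.48 (adjusted p = 7.14e-05), than in GFP-positive by -3.13 ± 0.45 (adjusted p = 0.00028) and than in Shh by -1.93 ± 0.45 (adjusted p = 0.0115; 0.0875 on the 6 arrays alone). Cdh8, also a neuronal type II cadherin, was at 6.01 ± 0.46 in GFP-positive, 5.49 ± 0.85 in Shh, 5.27 ± 0.44 in GFP-negative, 4.38 ± 0.09 in Myc secondary and 4.15 ± 0.06 in Myc primary (n = 3 each). Its difference from Shh was -1.34 ± 0.36 (adjusted p = 0.023), which ended without any one Myc primary array or without Shh 1 or 2 (adjusted p 0.0525 to 0.0954) and on the 6 arrays alone (0.0851). A dimmer Cdh8 probe set ordered the groups otherwise. It read 5.065, 5.66 and 4.248 in Shh and 4.268, 3.904 and 3.961, all below background, in GFP-positive. In Myc primary it read 3.497, 2.987 and 2.849.

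Other type II cadherins marked the GFP-negative fraction. Cdh11 (chromosome 8, 102632095 to 102785493), a mesenchymal and glial cadherin, read 9.56, 8.11 and 8.53 in GFP-negative, 3.36, 3.57 and 3.55 in GFP-positive, 5.01, 4.46 and 5.24 in Shh, 3.69, 3.84 and 3.68 in Myc secondary and 3.71, 3.42 and 7.73 in Myc primary. Only GFP-negative was high throughout. On this probe set Myc primary was high on array 3 alone, the array that also carried the oligodendrocyte and fibroblast markers at 9.27 and 7.67. The part of those cells in the Cdh11 signal was not tested. A second Cdh11 probe set did not single out array 3. It read 5.475, 3.982 and 4.98 in Myc primary, and 8.179, 5.996 and 5.823 in GFP-negative. Cdh11 was lower in GFP-positive than in GFP-negative by -5.24 ± 0.84 (adjusted p = 0.000482), at least 15.6-fold against the background level, and lower in Myc primary than in GFP-negative by -3.79 ± 0.84 (adjusted p = 0.00353; 0.0597 on the 6 arrays alone).

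Cdh22, which is expressed in brain, read 8.02, 7.11 and 6.31 in GFP-negative and 4.20, 4.44 and 4.45 in GFP-positive. The groups did not overlap, and Cdh22 was at 4.54 ± 0.23 in Myc primary, 4.90 ± 0.15 in Shh and 5.14 ± 0.54 in Myc secondary (n = 3 each). It was lower in GFP-positive than in GFP-negative by -2.78 ± 0.36 (adjusted p = 8.12e-05), at least 5.20-fold. Cdh6 read 7.28, 5.24 and 5.40 in GFP-negative and 3.56 to 4.01 on the other 12 arrays, a difference of -2.0 ± 0.39 between GFP-positive and GFP-negative (adjusted p = 0.00184; 0.0594 with a term for the runs). Cdh5 (VE-cadherin), the endothelial junction cadherin, read 5.80, 7.25 and 4.68 in GFP-negative, 3.69, 3.95 and 5.41 in Myc primary and 3.31 to 4.43 elsewhere. GFP-negative array 3 lay below Myc primary array 3, so those groups overlapped. Cdh5 was lower in GFP-positive than in GFP-negative by -2.45 ± 0.54 (adjusted p = 0.00434; 0.162 with a term for the runs). In that comparison 11 of 13 endothelial and mural markers were lower too, with array medians of 3.84 to 4.23 in GFP-positive against 6.45 to 7.83 in GFP-negative; the part of endothelial cells in the Cdh5 difference was not tested.

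Of the 5 other cadherins, only Cdh13 (T-cadherin), which is anchored to the membrane by a lipid and lacks a cytoplasmic tail, was above background. It read 7.62, 6.15 and 6.25 in GFP-negative, 4.82, 4.86 and 4.99 in GFP-positive, 5.25, 4.49 and 5.07 in Shh, 4.54, 5.20 and 5.64 in Myc primary and 7.15, 4.61 and 4.60 in Myc secondary. GFP-negative lay above GFP-positive without overlap, and Myc secondary was high on array 1 only. The difference between GFP-positive and GFP-negative was -1.79 ± 0.60 (limma adjusted p = 0.0432), and the call ended without any of 9 single arrays (adjusted p 0.0506 to 0.156). These were Myc primary 2, the 3 Shh arrays, GFP-negative 1 and 3 and the 3 GFP-positive arrays.

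**Figure D3:**
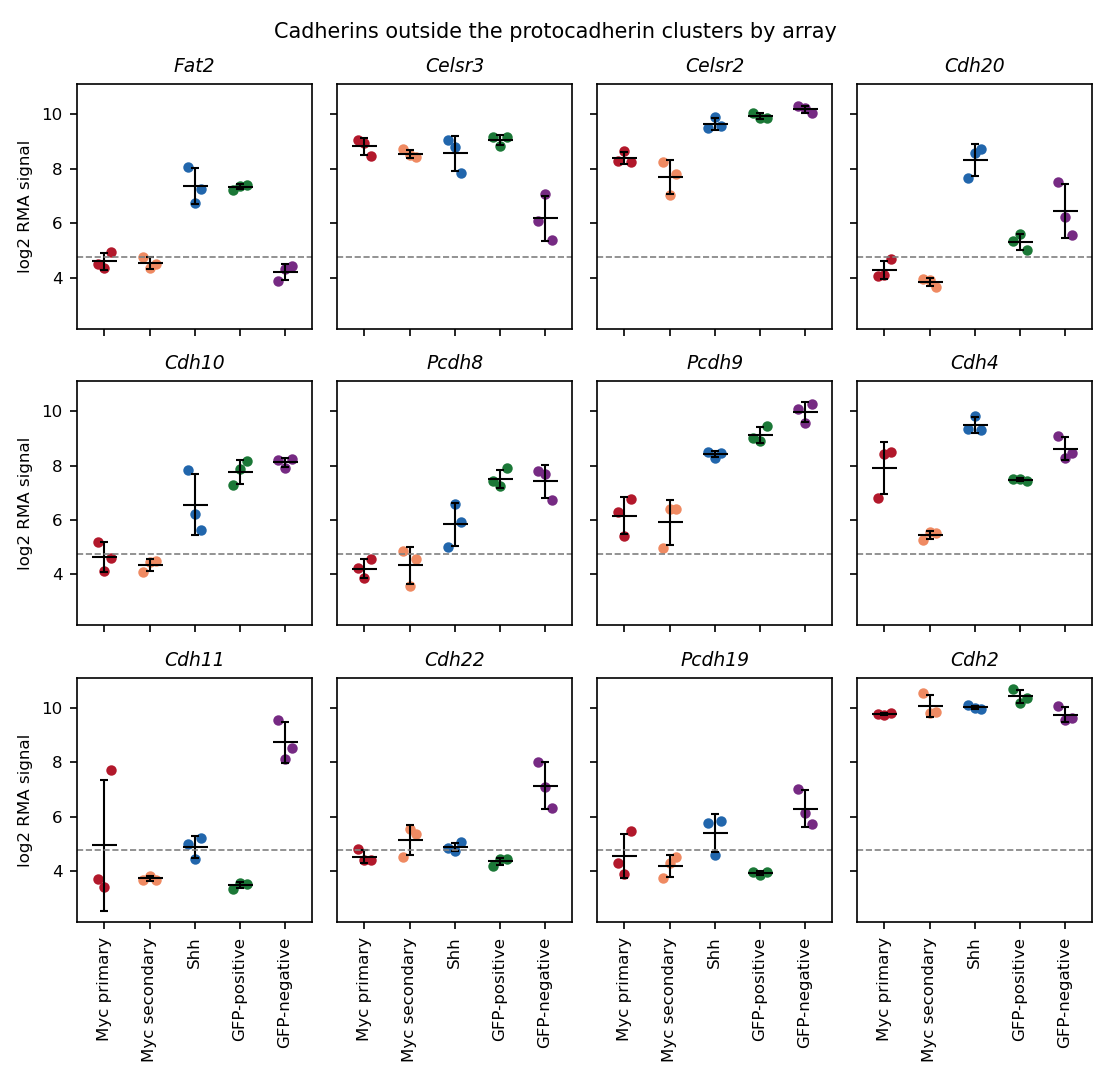
Log2 RMA signal on each array (dots) with mean ± SD (black, n = 3) in 5 groups for 12 cadherins outside the protocadherin clusters; the dashed line is the background level of 4.77. Cdh20 is highest in Shh, Cdh11 and Cdh22 in GFP-negative, the mean of Fat2 is above background only in Shh and GFP-positive, and Celsr3 is low only in GFP-negative.

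Non-clustered protocadherins mostly had their highest mean in GFP-negative cells, while Pcdh7, Pcdh12 and Pcdh19 had their lowest in GFP-positive cells. Pcdh9 (chromosome 14, 93013700 to 93892834), a delta-1 protocadherin of the nervous system, read 10.09, 9.56 and 10.24 in GFP-negative, 9.01, 8.90 and 9.46 in GFP-positive, 8.51, 8.29 and 8.47 in Shh, 6.29, 5.42 and 6.78 in Myc primary and 4.96, 6.39 and 6.39 in Myc secondary. The 3 non-Myc groups were ordered without overlap, and all lay above both Myc groups. Pcdh9 was lower in Myc primary than in GFP-negative by -3.80 ± 0.39 (adjusted p = 1.32e-05), than in GFP-positive by -2.96 ± 0.39 (adjusted p = 0.000149) and than in Shh by -2.26 ± 0.39 (adjusted p = 0.00185). The difference between Myc secondary and Myc primary was -0.25, with overlapping arrays.

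Pcdh8 (chromosome 14, 79766772 to 79771312), a delta-2 protocadherin linked to internalisation of N-cadherin at synapses, read 7.82, 7.70 and 6.73 in GFP-negative, 7.42, 7.25 and 7.89 in GFP-positive, 5.0, 6.58 and 5.93 in Shh, 4.22, 3.88 and 4.55 in Myc primary and 4.86, 3.58 and 4.56 in Myc secondary. Shh lay between the sorted cells and the Myc tumours and overlapped neither. Pcdh8 was lower in Myc primary than in GFP-positive by -3.30 ± 0.43 (adjusted p = 0.000121), at least 6.74-fold, and than in GFP-negative by -3.20 (adjusted p = 8.84e-05). Its steps to and from Shh were smaller. It was lower in Myc primary than in Shh by -1.62 ± 0.43 (adjusted p = 0.0213; ended without Myc primary 1 or 2 or Shh 2 or 3, 0.0544 to 0.0953, and on the 6 arrays alone, 0.0523) and lower in Shh than in GFP-positive by -1.69 ± 0.43 (adjusted p = 0.0299; ended without Shh 1 or 3 or any GFP-positive array, 0.0614 to 0.126, and with the run term, 0.0533).

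Pcdh19 (chromosome X), a delta-2 protocadherin whose human counterpart is mutated in an X-linked epilepsy, read 7.03, 6.16 and 5.72 in GFP-negative, 5.77, 4.62 and 5.87 in Shh, 4.29, 3.91 and 5.49 in Myc primary, 3.75, 4.32 and 4.51 in Myc secondary and 3.99, 3.85 and 3.96 in GFP-positive. GFP-negative was highest, with 1 of its arrays between the Shh arrays, and GFP-positive was below background throughout. It was lower in GFP-positive than in GFP-negative by -2.37 ± 0.44 (adjusted p = 0.00144) and lower in Myc primary than in GFP-negative by -1.74 ± 0.44 (adjusted p = 0.008). Pcdh17, also of the delta-2 type, read 9.15, 7.98 and 7.81 in GFP-negative, 5.5, 5.03 and 5.30 in GFP-positive, 6.04, 5.55 and 4.84 in Shh, 5.23, 3.45 and 6.57 in Myc primary and 8.94, 4.01 and 4.61 in Myc secondary. Array 1 of Myc secondary was as high as the GFP-negative arrays while its other 2 arrays were below background, which gave an SD of 2.69. Pcdh17 was lower in Myc primary than in GFP-negative by -3.24 ± 1.07 (adjusted p = 0.0327). That call ended without Myc primary 1 or 2 or GFP-negative 1 or 2 (adjusted p 0.0598 to 0.135). Its difference of -3.04 ± 1.07 between GFP-positive and GFP-negative was not called on the chosen probe set (adjusted p = 0.0529). With every probe set tested by itself, the dimmer probe set of Pcdh17 was called in that comparison.

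Pcdh10, a delta-2 protocadherin that recruits actin regulators, read 7.46, 7.16 and 7.89 in GFP-negative and 6.38 to 6.92 on the other 12 arrays. GFP-negative was higher without overlap, by a small step: -0.82 ± 0.19 in GFP-positive against GFP-negative (adjusted p = 0.00548; 0.310 when arrays were centred on their median gene). Its 3 other probe sets fell by 1.30 to 2.69 in the same comparison, so the chosen, brightest probe set gave the smallest difference of the 4. The remaining members lower in GFP-positive than in GFP-negative were Pcdh12, of vascular endothelium, by -1.27 ± 0.19 (adjusted p = 0.000245; -0.27 and 0.0604 with the mean of its probe sets), Pcdh11x by -1.09 ± 0.19 (adjusted p = 0.00101), and Pcdh7 and Pcdh1, whose means were below background in both groups. For Pcdh7 the call ended without GFP-negative 1 or 2 or any GFP-positive array (adjusted p 0.0541 to 0.111), and for Pcdh1 without GFP-negative 2 or GFP-positive 2 (0.0509 to 0.0524). The other 2 probe sets of Pcdh12 were below background on every array and differed by 0.22 and 0.24, neither called.

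The clustered protocadherins were read by 24 genes, Pcdha1, Pcdha10 and 22 Pcdhb genes, of which 13 were below background in every group mean. Above background were 11 genes in Shh, 8 in GFP-negative, 7 in GFP-positive, 7 in Myc secondary and 4 in Myc primary. These genes are related copies in tandem, so a probe set may pick up RNA of a neighbour, and the values are uncertain to that degree. The chosen probe sets of Pcdha1, Pcdhb14 and Pcdhb15 carry a suffix that marks a match to several transcripts.

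Pcdhb9 was high and Pcdhb15 was above background in Shh tumours, and both were at background in the other groups. Pcdhb9 read 8.76, 8.69 and 7.99 in Shh and 3.75 to 4.35 on the other 12 arrays. Every other array was below background, and the gap to the lowest Shh array exceeded 3 log2 units. The level in Myc primary was below that in Shh by -4.51 ± 0.22 (limma adjusted p = 7.13e-08), and higher in Shh than in GFP-positive by 4.57 ± 0.22 (adjusted p = 3.18e-07), in each case at least 13.1-fold. Both calls held under every alternative tried. Its neighbours on the map, Pcdhb8 and Pcdhb10, gave no such signal: the Shh mean was 3.74 for Pcdhb8 and 5.20 for Pcdhb10, and Pcdhb10 was lower in Myc primary than in Shh by -0.99 (adjusted p = 0.0145; ended without Myc primary 3 or Shh 2, 0.0582 to 0.0677). Pcdhb15 was read by a probe set whose suffix marks a match to several transcripts. Its other probe set, without that suffix, averaged 3.43 over the 15 arrays, below background. On the chosen probe set Pcdhb15 read 5.43, 6.19 and 5.44 in Shh and 3.63 to 4.16 on the other 12 arrays. Myc primary was lower than Shh by -1.90 ± 0.18 (adjusted p = 2.46e-05) and higher in Shh than in GFP-positive by 1.62 ± 0.18 (adjusted p = 0.000219), both at least 1.89-fold.

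A second set of clustered members was expressed in Shh tumours and in both sorted fractions and was low in Myc primary tumours. Pcdhb16 read 7.72, 7.96 and 7.58 in Shh, 7.54, 7.49 and 7.58 in GFP-positive, 6.62, 6.59 and 6.46 in GFP-negative, 8.05, 6.93 and 6.99 in Myc secondary and 6.39, 3.72 and 5.11 in Myc primary. All 3 Myc primary arrays lay below every other array. The difference of Myc primary from Shh was -2.68 ± 0.49 (adjusted p = 0.00273) and from GFP-positive -2.46 (adjusted p = 0.00273; 0.077 with a term for the runs). Pcdhb7 read 7.22, 7.75 and 7.14 in Shh, 6.92, 6.83 and 7.11 in GFP-positive, 6.04, 5.14 and 5.93 in GFP-negative, 6.08, 6.75 and 7.06 in Myc secondary and 4.97, 3.71 and 5.53 in Myc primary. Pcdhb7 was lower in Myc primary than in Shh by -2.63 ± 0.41 (adjusted p = 0.000845). Myc primary and GFP-negative overlapped. It was higher in GFP-positive than in GFP-negative by 1.25 ± 0.41 (adjusted p = 0.0381), a call that ended without GFP-negative 2 or 3, any GFP-positive array or Myc secondary 2 (adjusted p 0.05 to 0.15).

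Pcdhb20 read 7.14, 8.03 and 6.69 in Shh and 5.79, 4.10 and 4.78 in Myc primary, a difference of -2.40 ± 0.44 (adjusted p = 0.00252). Pcdhb3 read 6.22, 6.46 and 6.18 in Shh and 4.46, 3.83 and 3.78 in Myc primary, a difference of -2.27 ± 0.28 (adjusted p = 0.000169). Pcdhb17 read 7.14, 6.95 and 7.18 in Shh and 6.13, 4.17 and 5.10 in Myc primary, a difference of -1.96 ± 0.38 (adjusted p = 0.0036). In each of the 3 genes the 2 groups did not overlap, and each was also called lower in Myc primary than in both sorted fractions. Against GFP-negative, the calls of Pcdhb17 and Pcdhb20 ended without Myc primary 2 or 3 or GFP-negative 1 or 2 (adjusted p 0.0544 to 0.0975), and on the 6 arrays alone the adjusted p was 0.145 for Pcdhb17, 0.077 for Pcdhb20 and 0.0854 for Pcdhb3. Pcdhb3 was the only one of the 3 called between Shh and GFP-positive, by 1.17 ± 0.28 (adjusted p = 0.0209; ended without Shh 1 or 2 or any GFP-positive array, 0.0516 to 0.0809, and 0.712 with a term for the runs of title numbers). Pcdha1 and Pcdha10 end at the same annotated base, 37187657, so the Pcdha1 values may include RNA of other alpha genes. Pcdha1 read 8.0, 7.73 and 7.02 in Shh, 7.78, 7.47 and 7.92 in GFP-positive and 6.11, 6.17 and 4.62 in GFP-negative. It read 5.85, 4.90 and 5.67 in Myc primary and 3.38, 5.49 and 6.01 in Myc secondary. Shh and GFP-positive lay above all other arrays. It was lower in Myc primary than in Shh by -2.11 ± 0.60 (adjusted p = 0.0303; ended without Myc primary 2 or 3 or Shh 1 or 2, 0.0569 to 0.103) and higher in GFP-positive than in GFP-negative by 2.09 ± 0.60 (adjusted p = 0.0198; ended without GFP-negative 3 or GFP-positive 1 or 3, 0.0590 to 0.0789). The other clustered members lower in Myc primary than in Shh were Pcdhb21, Pcdhb4 and Pcdhb5, the last 2 with means below background in both groups, and all 3 calls ended without 1 or more single arrays, Myc primary 2 and Shh 2 among them.

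Array 2 of Myc primary read lowest of its group in 6 of 6 clustered members that had any array of that group above background, and in 18 of 26 of all such members. Single arrays of other groups also stood at 1 end. Counted in the same way, GFP-negative 1 was highest in 26 of 37 members and GFP-negative 3 lowest in 21 of 37. Shh 2 was highest in 9 of 12 clustered members. Myc secondary tumours, grown from cells of Myc primary tumours, had means between those of Myc primary and Shh in Pcdhb16, Pcdhb7 and Pcdhb20. Against Myc primary, Pcdhb16 differed by 2.25 ± 0.49 (adjusted p = 0.0632), Pcdhb7 by 1.89 ± 0.41 (adjusted p = 0.0604) and Pcdhb20 by 1.37 ± 0.44 (adjusted p = 0.198), none of them called on the chosen probe set. With every probe set tested by itself, a dimmer probe set of Pcdhb16 was called in this comparison. The arrays of Pcdhb16, Pcdhb7 and Pcdhb20 did not overlap between the 2 groups, as was so for 11 of 61 members and 17.7% of all genes.

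**Figure D4:**
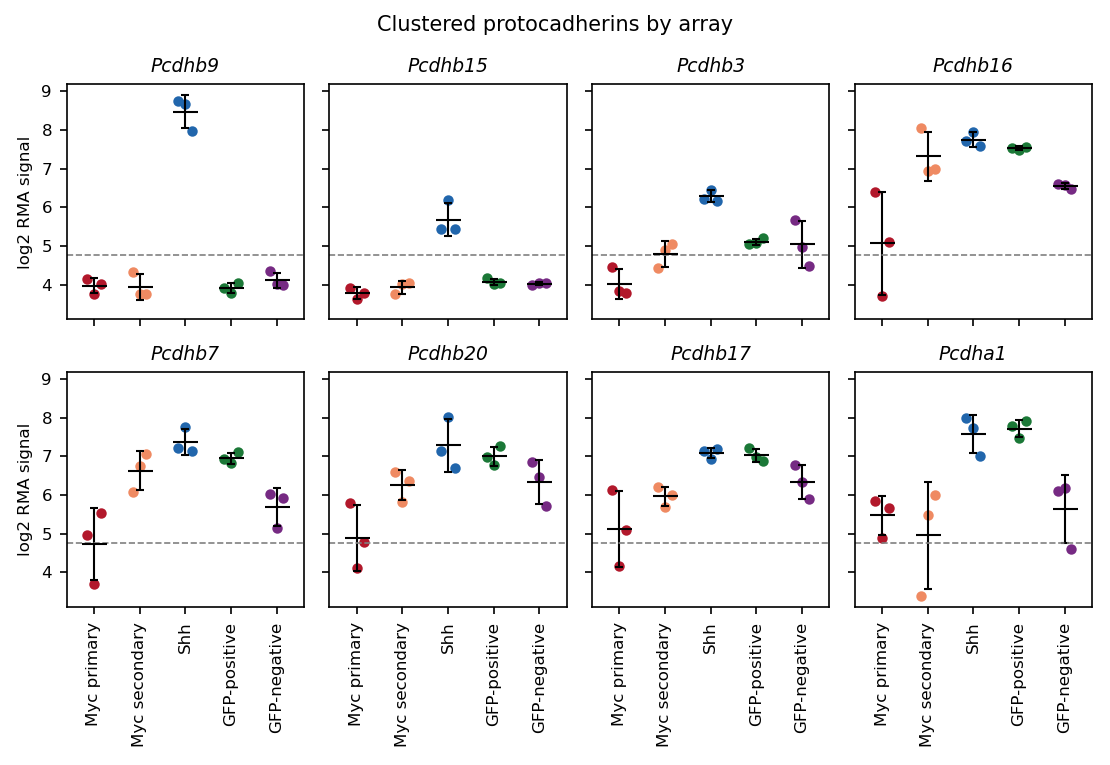
Log2 RMA signal on each array (dots) with mean ± SD (black, n = 3) in 5 groups for 8 clustered protocadherins; the dashed line is the background level of 4.77. Pcdhb9 and Pcdhb15 are above background only in Shh, and the other 6 are lower in Myc primary than in Shh.

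Regulators of the clustered genes were measured from a list of 10. In Myc primary against Shh, 1 was higher, the DNA methyltransferase Dnmt3b, by 0.77 ± 0.23 (adjusted p = 0.0429; arrays overlapped), and 4 were lower. The 4 were Ctcf, the insulator protein that binds protocadherin promoters, by -0.80 ± 0.15 (adjusted p = 0.00293), and the cohesin subunit Stag2 and the cohesin factors Wapl and Nipbl. Over all genes 8.46% were called higher and 7.33% lower. The list's median difference was -0.30, against 0.08 over all genes. Ctcf was highest in GFP-positive (11.30 ± 0.10) and lowest in Myc primary (10.07 ± 0.02, n = 3 each), and was higher in GFP-positive than in GFP-negative by 0.81 ± 0.15. No member of the list was called in Myc secondary against Myc primary. Its relation to the clustered genes was not tested.

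Of the Celsr genes, which carry a receptor domain of the adhesion GPCR type, Celsr2 and Celsr3 differed in opposite ways. Celsr3 (chromosome 9, 108826023 to 108852969), needed for axon tracts, read 9.18, 8.85 and 9.17 in GFP-positive, 9.05, 8.94 and 8.48 in Myc primary, 9.06, 8.81 and 7.84 in Shh, 8.71, 8.51 and 8.42 in Myc secondary and 6.08, 7.06 and 5.38 in GFP-negative. All 12 arrays of the tumours and GFP-positive cells lay above GFP-negative. Myc primary and Shh overlapped GFP-positive, while the Myc secondary arrays lay below the GFP-positive arrays. Celsr3 was higher in GFP-positive than in GFP-negative by 2.89 ± 0.38 (limma adjusted p = 9.65e-05) and higher in Myc primary than in GFP-negative by 2.65 ± 0.38 (adjusted p = 0.000149). It was the only member called higher in Myc primary in any of its 3 comparisons with Shh and the sorted cells.

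Celsr2, which acts in ependymal cilia and neuronal migration, read 10.30, 10.21 and 10.04 in GFP-negative, 10.05, 9.87 and 9.87 in GFP-positive, 9.48, 9.90 and 9.55 in Shh, 8.28, 8.67 and 8.25 in Myc primary and 8.26, 7.02 and 7.80 in Myc secondary. Every Myc array lay below every other array. Celsr2 was lower in Myc primary than in Shh by -1.25 ± 0.25 (adjusted p = 0.00473), than in GFP-positive by -1.53 (adjusted p = 0.000696) and than in GFP-negative by -1.79. Its second probe set was likewise lowest in both Myc groups. Celsr1, which orients hair cells and hair follicles, read 7.08, 6.49 and 6.42 in GFP-positive, 5.53, 7.67 and 5.98 in Myc primary, 7.19, 5.77 and 6.15 in Myc secondary, 5.30, 5.61 and 7.21 in Shh and 6.36, 5.22 and 4.39 in GFP-negative. It overlapped between all groups compared except GFP-positive and GFP-negative, and was called in none of the 6 comparisons.

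Among the Fat genes, Fat2 was high in Shh tumours and GFP-positive cells and Fat1 was high on every array. Fat2 (chromosome 11, 55250609 to 55337505), an atypical cadherin of granule cell parallel fibres, read 8.08, 6.74 and 7.27 in Shh, 7.23, 7.38 and 7.40 in GFP-positive, 4.51, 4.35 and 4.93 in Myc primary, 4.77, 4.35 and 4.51 in Myc secondary and 3.88, 4.31 and 4.42 in GFP-negative. Shh and GFP-positive overlapped each other and lay above all other arrays. Fat2 was higher in GFP-positive than in GFP-negative by 3.13 ± 0.28 (adjusted p = 4.73e-06), at least 5.93-fold. Myc primary was lower than Shh by -2.77 ± 0.28 (adjusted p = 4.50e-05) and lower than GFP-positive by -2.74 ± 0.28 (adjusted p = 2.2e-05). Shh and GFP-positive differed by 0.03 ± 0.28 and were not called. The array medians of the 8 granule progenitor markers were highest in the same groups. Of these markers, 7 of 8 were lower in Myc primary than in Shh and 7 of 8 higher in GFP-positive than in GFP-negative. Unlike Fat2, which was below background in GFP-negative, the markers had array medians of 7.64 to 8.50 there.

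Fat1, a regulator of growth and actin, read 9.38, 10.33 and 9.34 in Myc primary, 8.39, 8.87 and 8.65 in Myc secondary, 9.67, 9.56 and 9.73 in Shh, 9.67, 9.71 and 9.77 in GFP-positive and 10.72, 10.20 and 10.20 in GFP-negative. Myc secondary lay below all other arrays, with a difference from Myc primary of -1.04 ± 0.24 that was not called (adjusted p = 0.0714). Fat1 was lower in Myc primary than in GFP-negative by -0.69 ± 0.24 (adjusted p = 0.04) with overlapping arrays, and 9 single arrays each ended this call (adjusted p 0.0513 to 0.150), Myc primary 1 and 3 and GFP-negative 1 among them. Fat3, which shapes neuronal dendrites, read 8.54, 7.68 and 8.34 in GFP-negative, 6.98, 7.53 and 7.03 in GFP-positive, 6.82, 6.98 and 6.61 in Shh, 6.59, 5.61 and 5.92 in Myc primary and 3.74, 7.64 and 7.66 in Myc secondary. Array 1 of Myc secondary was below background while its other 2 arrays lay between those of GFP-positive and GFP-negative, and Fat3 was called in none of the 6 comparisons.

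Genes that work with these cadherins were read from separate lists. Of 15 catenins and junction adaptors, 4 were lower and 0 higher in Myc primary than in Shh: Nectin3, an immunoglobulin-type adhesion protein, by -2.73 ± 0.54 (adjusted p = 0.00416), Ctnnd2 (delta-catenin) by -1.74 ± 0.51 (adjusted p = 0.0365), Ctnna1 (alpha-catenin) by -0.72 ± 0.20 (adjusted p = 0.0311), and the adaptor Afdn. The list's median difference was -0.07, against 0.08 over all genes. In GFP-positive against GFP-negative, 1 was higher (Nectin3, by 1.84 ± 0.54, adjusted p = 0.0221) and 3 were lower (Pkp4, Nectin2 and Ctnnb1). Of 10 measured genes of the Fat and Celsr pathway, 1 was higher and 2 lower in Myc primary than in Shh: the frizzled receptors Fzd6, by 0.98 ± 0.22 (adjusted p = 0.00978), and Fzd3, by -1.04 ± 0.21 (adjusted p = 0.00499), and the polarity protein Prickle2, by -1.66 ± 0.44 (adjusted p = 0.0207). In GFP-positive against GFP-negative, Prickle2 and Dvl3 were higher and Prickle1, Fzd6 and Fjx1 lower; Prickle1 differed by -3.85 ± 0.70 (adjusted p = 0.00127) and Prickle2 by 2.20 ± 0.44 (adjusted p = 0.00222). Of 7 cadherin cleavage enzymes measured, Ncstn, the gamma-secretase subunit nicastrin, was lower in Myc primary than in Shh by -1.26 ± 0.26 (adjusted p = 0.00537), and of 7 protocadherin signalling genes Nckap1, a subunit of the WAVE complex, was lower. In Myc primary against GFP-negative, 6 of 15 catenins and adaptors were lower (list median -0.60), 5 of 10 Fat and Celsr pathway genes were lower and 1 higher (-0.89), and 5 of 7 protocadherin signalling genes were lower (-0.96), against a median of 0.05 over all genes. None of these lists had a member called in Myc secondary against Myc primary, where 0.719% of all genes were called. In Myc primary against Shh, 8.46% of all genes were called higher and 7.33% lower. These shares were 12.6% and 13.8% in GFP-positive against GFP-negative, and 19.1% and 14.7% in Myc primary against GFP-negative.

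Members read by several probe sets were not called in opposite directions. Of the 61 genes, 24 had more than 1 probe set, and none had probe sets called both higher and lower in any comparison. With every probe set tested by itself, 29 of 96 were called in Myc primary against Shh, all lower, against 14.4% of all probe sets. Some members differed on a dimmer probe set alone. Pcdh18 was lower in Myc primary than in Shh by -2.29 ± 0.58 (adjusted p = 0.0196) on its second probe set and by -1.17 ± 0.49 (adjusted p = 0.135) on the chosen one. Pcdh20 was lower in Myc primary than in GFP-negative by -3.08 ± 0.37 (adjusted p = 4.6e-05) on its second probe set, which read 7.30, 6.38 and 6.02 in GFP-negative and 3.62, 3.63 and 3.21 in Myc primary. Its chosen probe set was flat near background, at 4.54 ± 0.16 in Myc primary and 4.88 ± 0.15 in GFP-negative (n = 3 each).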

How the data were processed

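Gene expression was measured on 15 one-colour arrays, 3 in each of 5 groups. The authors deposited log2 signals, made by robust multi-array averaging (RMA) in Partek 6.5, per the submitters' processing notes; the RMA settings are not given in the sources used here. Such values compress differences near the floor and were not scaled again. The 104 control probe sets and 551 probe sets with several genes were left out. Symbols were updated through gene identifiers for 28689 of 28898 probe sets (209 kept the listed one), with GRCm38.p6 names. The brightest probe set by mean over the 15 arrays stood for each of 17097 genes. Groups came from the source labels. A one-way limma fit (lmFit, eBayes; limma 3.58.1, R 4.3.3) over 15 arrays gave all comparisons, with 10 residual and 2.54 prior degrees of freedom, two-sided, adjusted by Benjamini-Hochberg over all genes; the script was tested on simulated data. A fold given as "at least" sets the dimmer group, below background on all 3 arrays, at the background level. The number of arrays limits the precision. Members, gene lists and the rule for named genes were chosen with earlier results of these data known. Every called member could be named; values by array were given for up to 8 called members per comparison with the largest differences whose arrays did not overlap, and for 15 set members (Cdh1, Cdh2, Cdh4, Cdh5, Cdh11, Cdh13, Celsr1 to Celsr3, Fat1 to Fat3, Pcdh10, Pcdh17 and Pcdh19), and up to 4 genes per partner list were given by smallest adjusted p. The alternatives were another choice of probe set, a filter on dim genes, other scalings, variance models and array subsets, and a term for the runs of title numbers.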

Additional observations from a re-analysis of the deposited data

How the results depend on the processing

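Of 81 calls of a member in a comparison, 52 held without each single array and 38 under every alternative, and 0 changed direction. In Myc secondary against Myc primary (1 call), the count was 4 with the mean of probe sets, 3 with cyclic loess, 5 with arrays centred on their median gene, 5 with array weights, 2 with a term for the runs, 4 with every probe set tested alone, and 0 on the 6 arrays, where limma gave 7 at an unadjusted p below 0.05. In GFP-positive against GFP-negative (17), it was 30 with centring (21 higher, 9 lower), 27 with weights and 10 with the run term. In Shh against GFP-positive (6), it was 13 on the 6 arrays, 12 with weights, 10 without Myc primary 3, GFP-negative 3 and Myc secondary 1, 3 with the run term and 10 with every probe set. In Myc primary against GFP-negative (23), it was 15 on the 6 arrays. The cause of these changes was not tested, except that fewer arrays enter the fit on 6 arrays. Without 1 array at a time, the counts ran from 12 to 22 in Myc primary against Shh, 1 to 4 in Myc secondary against Myc primary, 11 to 19 in GFP-positive against GFP-negative, 4 to 9 in Shh against GFP-positive, 11 to 16 and 15 to 25 in Myc primary against GFP-positive and GFP-negative, and 29 to 37 in the F test. No paired analysis was possible because the labels give no replicate numbers shared between groups. Signals near background limit the sizes: 19 of 61 members were below it on all 15 arrays.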

Other observations

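The probe sets that the annotation lists with several genes, and that were therefore not members, include 1 for Fat4 and 2 for Pcdh7. The Fat4 probe set read 7.23, 6.74 and 6.59 on the GFP-negative arrays and 4.33 to 5.66 on the other 12. The brighter Pcdh7 probe set read 7.003, 5.734 and 4.808 on the GFP-negative arrays and 3.90 to 4.22 on the GFP-positive arrays, and the other stayed below background on all 15 arrays.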
